A study of Drosophila melanogaster with 8 samples.

Results

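Dopamine and serotonin are made, packaged, recovered and conjugated by a short set of enzymes and carriers, and 9 genes of that set are described here: Ddc, ple, Pu, Hn, e, t, Vmat, DAT and SerT. They were taken by gene symbol among the probe sets that the array's annotation assigns to a single gene. By this rule 8 of the 9 genes had a level, from 11 of the 18952 probe sets, and they are 8 of 11983 genes measured in the series. Hn, which encodes phenylalanine hydroxylase, had no such probe set and was not analysed here.

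The arrays (Affymetrix Drosophila Genome 2.0) measured whole females of SZ, a composite line made by crossing 6 Zimbabwean isofemale lines of Drosophila melanogaster that strongly prefer their own males. All females were virgins before the experiment and 7 days past eclosion when each was mated with a male of her own SZ line (ZxZ) or of LHM, an outbred Californian population that stands for the cosmopolitan M strain (ZxM). Each of the 8 samples, 4 ZxZ and 4 ZxM, pooled 8 females frozen 30 minutes after copulation ended, and was extracted and hybridised separately. No unmated females were measured, so a difference between ZxZ and ZxM shows which group was lower and not how either moved on mating, and M stands for 1 population only.

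In flies, as in other animals, dopamine is made from tyrosine by a hydroxylase that needs tetrahydrobiopterin and then by a decarboxylase, and the same decarboxylase completes the synthesis of serotonin. Neurons load both amines into vesicles and take them up again after release. Insects also use dopamine outside the nervous system: it is oxidised in the epidermis to darken and harden cuticle, or first joined to beta-alanine to give a paler cuticle. Whole females hold neurons, epidermis and ovary together, so the level of a gene here is a sum over all of them.

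Levels are log2 values as deposited, and differences are ZxZ minus ZxM on that log2 scale, from limma with array weights. Of the 8 genes 4 were among the 5991 genes tested, those whose interquartile range over the arrays was in the upper 50% (at least 0.0908). Of these 4, Ddc and Pu were lower in ZxZ at 10% FDR, none was higher, and t and DAT did not pass. In the whole series 18.7% of tested genes were called, 17.6% lower in ZxZ and 1.1% higher, so lower calls were common. The median difference of the tested genes was -0.09, and it was -0.17 over the 4 tested members. The brighter probe sets were dimmer in ZxZ at large: the 75th percentile of an array lay between 9.46 and 9.54 in ZxZ and between 9.55 and 9.64 in ZxM, without overlap, and the part of this shift in the calls was not tested. Array weights ran from 0.505 (ZxM replicate 2) to 1.75 (ZxM replicate 1). Every call given here for a member or another gene was lost in the fits without ZxZ replicate 3, ZxZ replicate 4, ZxM replicate 1 or ZxM replicate 3, in which limma called 0 of the tested genes at 10% FDR (1080, 1187, 1408 and 1163 had an unadjusted p under 0.05).

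Ddc encodes dopa decarboxylase (aromatic amino acid decarboxylase), the enzyme that forms both dopamine and serotonin. Its log2 level (Entrez gene 35190, arm 2L) was 8.28, 8.40, 8.20 and 8.09 in ZxZ replicates 1 to 4. In ZxM it was 8.55, 8.56, 8.72 and 8.63. Every ZxZ pool thus lay below every ZxM pool, which was so for 8.7% of all measured genes. The group means were 8.24 ± 0.132 (SD, n = 4) and 8.62 ± 0.0782 (SD, n = 4), and the fitted log2 difference was -0.38 (SE 0.0679, 95% interval -0.53 to -0.23, adjusted p = 0.0866 from limma). This is a level 1.30-fold lower in ZxZ (95% interval 1.18 to 1.45). In a pool of whole flies, fewer cells that express Ddc and less of its RNA per cell cannot be told apart.

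Among the 5991 tested genes Ddc ranked 4 by p, and 39 genes, Ddc included, had a difference as low or lower. Most genes at its level differed less: of 868 tested genes with a mean level between 8 and 9, 14.1% were called lower in ZxZ, their median difference was -0.09, and 9, with Ddc, reached -0.38. With arrays put on common quantiles and probe sets held, a scaling that brought the median difference of tested genes to -0.01, Ddc differed by -0.34 (SE 0.0536) and ranked 1 by p, with an unadjusted p of 0.000106. Its adjusted p was then 0.337 from limma, so it was not called, nor was any other tested gene (584 had an unadjusted p under 0.05). Ddc was called by limma at 10% FDR without ZxZ replicate 1, ZxZ replicate 2, ZxM replicate 2 or ZxM replicate 4, and was not without any of the other 4 arrays, where its difference was -0.33 (ZxZ replicate 3), -0.30 (ZxZ replicate 4), -0.41 (ZxM replicate 1) and -0.37 (ZxM replicate 3) and its adjusted p 0.129 to 0.246. With the replicate number as a block Ddc differed by -0.40 and was not called (adjusted p = 0.132 from limma).

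**Figure D1:**
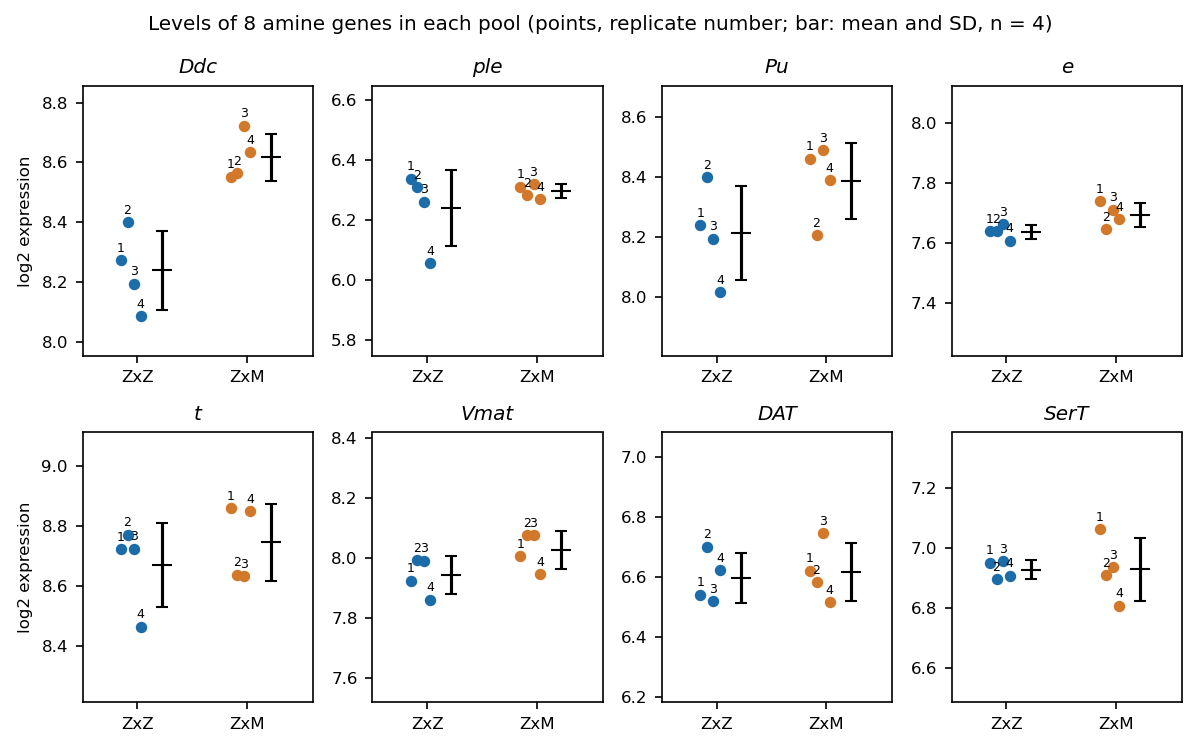
Log2 expression (vertical axis, each panel spanning the same range of log2 units) of the 8 measured genes in the 4 ZxZ and 4 ZxM pools. Points are pools with their replicate number, and bars are the mean and SD (n = 4). The groups are apart for Ddc, with 8.40 as the highest ZxZ value and 8.55 as the lowest ZxM value, and overlap in the other 7 panels.

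Pu (Punch) encodes GTP cyclohydrolase I, the first enzyme of the pathway to tetrahydrobiopterin, the cofactor of the amino acid hydroxylases, and to the red eye pigments. Its log2 level (Entrez gene 37415, arm 2R) was 8.24, 8.40, 8.19 and 8.02 in ZxZ and 8.46, 8.21, 8.49 and 8.39 in ZxM. The groups overlap, because ZxM replicate 2 lay within the ZxZ range and ZxZ replicate 2 above the lowest ZxM pools. The means were 8.21 ± 0.157 (SD, n = 4) and 8.39 ± 0.128 (SD, n = 4), and the log2 difference was -0.22 (SE 0.0781, 95% interval -0.39 to -0.05, adjusted p = 0.0981 from limma), a 1.16-fold lower level. ZxM replicate 2, the pool that lies low, carries the smallest array weight, and the difference of the unweighted fit was -0.17 (adjusted p = 0.243 from limma). Of the 868 tested genes at levels between 8 and 9, 68, Pu included, had a difference as low or lower. Leaving out ZxZ replicate 3, ZxZ replicate 4, ZxM replicate 1 or ZxM replicate 3 ended the call, with differences of -0.17, -0.13, -0.18 and -0.18 in that order, and after quantile normalization Pu differed by -0.16 (adjusted p = 0.487 from limma). With the replicate number as a block it differed by -0.24 and was not called (adjusted p = 0.135 from limma).

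ple (pale) encodes tyrosine hydroxylase, the enzyme that commits tyrosine to dopamine. Its log2 level was 6.34, 6.31, 6.26 and 6.06 in ZxZ and 6.31, 6.28, 6.32 and 6.27 in ZxM. These are among the lowest values of the array: 0.0799% of the non-control probe sets had a lower mean, so ple lay at the floor of the measured range. It was outside the tested genes, and in the fit over all 11983 measured genes it differed by -0.04 (95% interval -0.16 to 0.08, adjusted p = 0.669 from limma). That fit called no gene at 10% FDR (2529 had an unadjusted p under 0.05), and the genes below that were not tested are given from it. The ZxZ pools spread over a wider range than the ZxM pools because of replicate 4, and without that pool the difference of ple was 0.01.

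e (ebony) encodes the synthase that joins beta-alanine to dopamine or histamine, and t (tan) the hydrolase that sets the amine free again. The log2 level of e was 7.64, 7.64, 7.66 and 7.61 in ZxZ and 7.74, 7.65, 7.71 and 7.68 in ZxM, with an overlap between the third ZxZ pool and the second ZxM pool only. Its difference was -0.06 (95% interval -0.14 to 0.02, adjusted p = 0.346 from limma over all measured genes). The log2 level of t, the only X-linked member, was 8.72, 8.77, 8.72 and 8.46 in ZxZ and 8.86, 8.64, 8.63 and 8.85 in ZxM. ZxZ replicate 4 lay apart from the other ZxZ pools, and the ZxM pools fell into a high and a low pair. The difference of t was -0.12 (95% interval -0.29 to 0.06, adjusted p = 0.294 from limma), so a difference as large as that of Pu and a small one of opposite sign both lie within its interval.

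Of the 3 carriers only DAT was among the tested genes, and it was not called. Vmat encodes the vesicular monoamine transporter, which fills synaptic vesicles with dopamine, serotonin and other amines. The probe set that stood for it was at 7.92, 7.99, 7.99 and 7.86 in ZxZ and 8.01, 8.08, 8.08 and 7.95 in ZxM, an overlapping range, with a log2 difference of -0.06 (95% interval -0.16 to 0.04, adjusted p = 0.451 from limma over all measured genes). The other 3 probe sets of Vmat were fitted with all non-control probe sets and differed by 0.07, -0.002 and -0.005 (adjusted p = 0.347, 0.988 and 0.971 from limma), so the 4 probe sets do not share a direction.

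DAT encodes the dopamine transporter of the plasma membrane, and its log2 level was 6.54, 6.70, 6.52 and 6.62 in ZxZ and 6.62, 6.58, 6.75 and 6.52 in ZxM. The pools of both groups are interleaved, and the difference was -0.03 (95% interval -0.16 to 0.10, adjusted p = 0.723 from limma). SerT, the serotonin transporter, was at 6.95, 6.89, 6.96 and 6.91 in ZxZ and 7.06, 6.91, 6.94 and 6.81 in ZxM, a difference of -0.01 (95% interval -0.13 to 0.12, adjusted p = 0.938 from limma over all measured genes). ZxM held both the highest and the lowest SerT value. DAT also lies near the low end of the array, with 11.0% of non-control probe sets lower, while 36.0% were lower than SerT, and VSN compresses differences at such levels. The sign of DAT, of SerT and of ple turned in at least 1 of the fits that left out a pool.

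**Figure D2:**
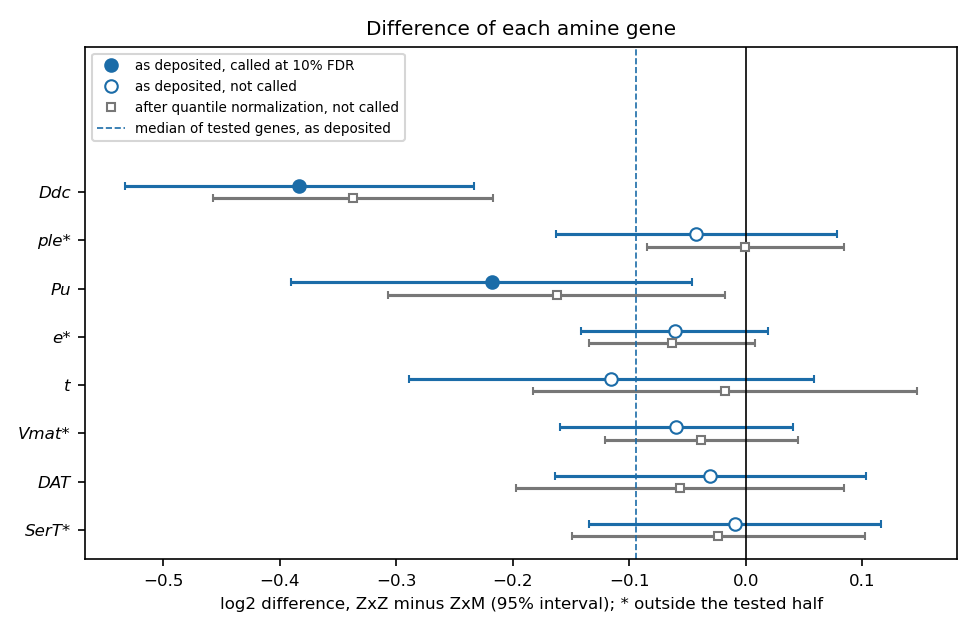
Log2 difference (ZxZ minus ZxM, horizontal axis) of each member with its 95% interval, as deposited (circles, filled where called by limma at 10% FDR) and after quantile normalization (squares). An asterisk marks members outside the tested genes, and the dashed line is the median of the tested genes as deposited, -0.09. The Ddc interval lies to the left of that line in both forms of the data, from -0.53 to -0.23 as deposited, and as deposited those of 6 members include 0.

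All 8 measured members had a negative difference, with a median of -0.06 in the fit over all measured genes, where the median of all genes was -0.03. A negative sign was thus the more common one in the series, and the signs of ple, DAT and SerT turned in fits that left out a pool. ZxZ replicate 4 was the lowest ZxZ pool for 6 of the 8 members and ZxZ replicate 2 the highest for 5. Over the tested genes ZxZ replicate 4 was the lowest of its group for 37.8% and ZxZ replicate 2 the highest for 36.5%, so the same pools were most often at the ends of the range in the series at large.

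Ddc was set beside the other members by the value of Ddc minus the other gene within each array, in 8 comparisons made after the values had been seen. Against ple this value was lower in ZxZ by a mean log2 difference of -0.32, against e by -0.32, against t by -0.30, against Vmat by -0.29, against DAT by -0.36 and against Pu by -0.20. In each of these 6 comparisons every ZxZ pool lay below every ZxM pool (p = 0.0286 in an exact two-sided permutation test, the smallest that 4 pools against 4 allow, and adjusted p = 0.0381 over the 8 comparisons). Against SerT it was -0.38 with an overlap (exact permutation p = 0.0571, adjusted p = 0.0653). The 8th comparison was with amd, a paralog of Ddc close to it on chromosome arm 2L that acts in cuticle formation, and gave -0.34, also with an overlap (exact permutation p = 0.0857, adjusted p = 0.0857). Ddc was chosen for its difference, so these p-values are a description and no independent support. They cannot decide whether Ddc differed by more than the other members, because its own split of the pools enters every comparison. ple and DAT also lie near the low end of the array, where VSN compresses differences.

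The log2 level of amd itself was 7.68, 7.91, 7.50 and 7.77 in ZxZ and 7.88, 7.89, 7.58 and 7.66 in ZxM, with overlapping groups and a difference of -0.08 (SE 0.0965, adjusted p = 0.526 from limma). Of the 5 measured genes on each side of Ddc only amd and AsnRS, an asparaginyl-tRNA synthetase gene, were among the tested genes, and AsnRS differed by -0.05 (SE 0.0544, adjusted p = 0.480 from limma). None of the 10 was called, and their differences ran from -0.15 to 0.005 with a median of -0.03. Around Pu, on arm 2R, 5 of 10 neighbours were tested and 1 was lower, Gyg, which encodes glycogenin, at -0.28 (SE 0.0656, adjusted p = 0.0866 from limma). Represented by its brightest probe set instead, Gyg differed by 0.08, so its probe sets disagree. The other tested neighbours of Pu were CG30389 at -0.12, Isha at -0.16, hng1 at -0.11 and Ugt49B1 at 0.05 (adjusted p = 0.113, 0.109, 0.124 and 0.677), and the median of the 10 was -0.09.

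**Figure D3:**
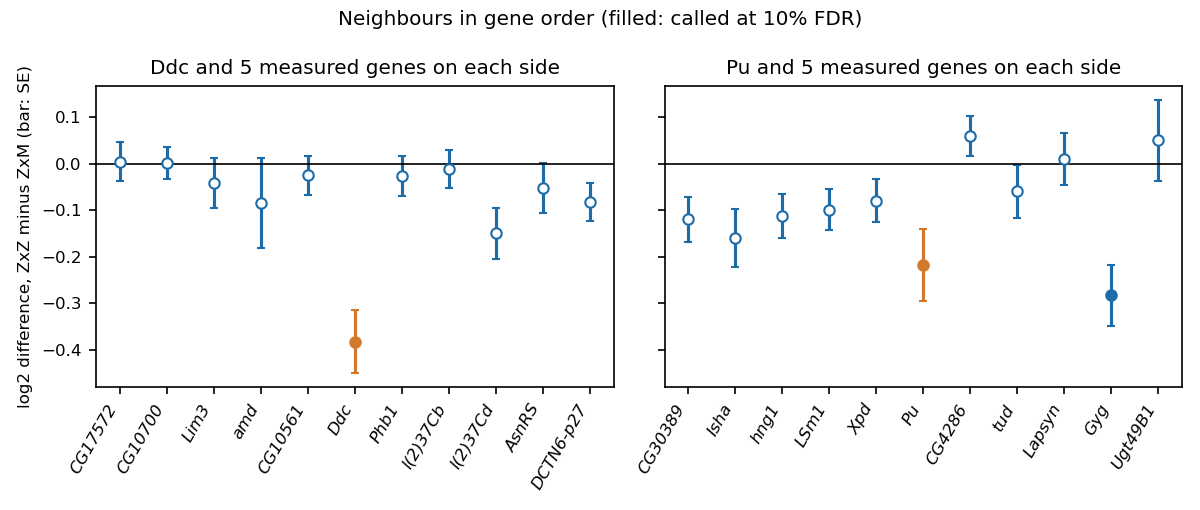
Log2 difference (ZxZ minus ZxM, vertical axis, bars are SE) of Ddc and Pu (orange) and of the 5 measured genes on each side in gene order (blue, filled where called by limma at 10% FDR; genes that were not tested come from the fit over all measured genes). None of the 10 neighbours of Ddc falls below -0.15, against -0.38 for Ddc, and 1 neighbour of Pu, Gyg, was called.

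Around Pu in the biopterin pathway, all 5 listed genes were measured and all 5 had negative differences, but none of the 3 tested passed. Sptr, sepiapterin reductase, which completes tetrahydrobiopterin, had a mean level of 9.76 in ZxZ (SD 0.0834) and 9.93 in ZxM (SD 0.101), and differed by -0.15 (SE 0.0611, adjusted p = 0.120 from limma). Dhpr, dihydropteridine reductase, which regenerates the cofactor, differed by -0.12 (SE 0.0573, adjusted p = 0.159), and by 0.002 after quantile normalization. The median of the 5 genes was -0.10, beside -0.09 over the tested genes and -0.03 over all measured genes. They include pr, Pcd and Catsup, a protein that restrains ple and Pu.

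Among other genes of amine synthesis and breakdown 6 of 8 were measured and none of the 3 tested was called, with differences from -0.08 to 0.03. The smallest p belonged to Hdc, histidine decarboxylase of histamine synthesis, at -0.07 (adjusted p = 0.358 from limma over all measured genes), and to Tdc1, a tyrosine decarboxylase, at -0.08 (adjusted p = 0.365). The neuronal tryptophan hydroxylase gene Trhn and b, whose enzyme supplies beta-alanine, were not analysed here. Receptors could not be called in either direction: none of the 3 measured dopamine receptor genes or the 5 serotonin receptor genes passed the variability filter. In the fit over all measured genes Dop1R1 was at -0.07, DopEcR at 0.03, 5-HT2B at 0.12 and 5-HT1B at 0.06 (adjusted p = 0.295, 0.734, 0.297 and 0.469 from limma). The groups did not overlap for Dop1R1, at means of 6.57 for ZxZ (SD 0.0248) and 6.64 for ZxM (SD 0.0219). Every ZxZ pool lay below every ZxM pool for 8.7% of all measured genes. Dop1R1 lies near the low end of the array, at a mean level of 6.61, like DAT.

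Of the 7 other transporter genes 3 were tested and 1 was lower, blot (bloated tubules), a member of the sodium- and chloride-dependent family to which DAT and SerT also belong. It was at 11.48, 11.41, 11.32 and 11.30 in ZxZ and 11.53, 11.46, 11.70 and 11.52 in ZxM, overlapping by 1 pool, and its log2 difference was -0.19 (SE 0.0608, adjusted p = 0.0901 from limma). After quantile normalization it was -0.09. VAChT, the vesicular acetylcholine transporter, at -0.16 (adjusted p = 0.153), and ine at 0.07 (adjusted p = 0.339 over all measured genes) did not pass.

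In the list for cuticle pigment and hardening, 10 of 10 genes were measured and 6 tested, of which 1 was lower in ZxZ, 1 higher and 4 did not pass. The lower gene was stw (straw), which encodes laccase 2, the oxidase that cross-links cuticle with dopamine derivatives. Its log2 level was 7.70, 7.89, 7.92 and 7.69 in ZxZ and 8.03, 7.95, 8.08 and 8.15 in ZxM. The groups did not overlap, as for 8.7% of all measured genes with ZxZ lower. The difference of stw was -0.24 (SE 0.0679, adjusted p = 0.0874 from limma). The higher gene, yellow-d, of the family of the pigment gene yellow, was at 9.28, 9.33, 9.13 and 9.12 in ZxZ and 8.83, 8.95, 9.11 and 9.002 in ZxM. Its groups did not overlap either, and the share of all genes apart in that direction was not counted. The difference of yellow-d was 0.25 (SE 0.0719, adjusted p = 0.0874 from limma). After quantile normalization stw was at -0.24 and yellow-d at 0.32, and neither was called (adjusted p = 0.412 and 0.357 from limma). The remaining genes ran from -0.04 to 0.08. They include kkv, a chitin synthase, at 0.08 (adjusted p = 0.246), and yellow-f at 0.05 (adjusted p = 0.527 over all measured genes). The list median was 0.03.

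Of the genes with a known part in Ddc or ple transcription or in the epidermal response to wounding, 8 of 9 were measured, 6 tested and 1 lower, srp (serpent), a GATA factor needed for blood cells and fat body. It was at 8.74, 8.93, 8.48 and 8.52 in ZxZ and 9.07, 8.93, 8.98 and 9.15 in ZxM, a log2 difference of -0.42 (SE 0.0924, adjusted p = 0.0866 from limma). The highest ZxZ pool reached 8.925 and the lowest ZxM pool 8.926, so the groups meet without overlapping. msn, a kinase of the JNK cascade, at -0.15 (adjusted p = 0.101) and puc, a phosphatase induced by it, at -0.17 (adjusted p = 0.111) did not pass, and the list median was -0.10.

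**Figure D4:**
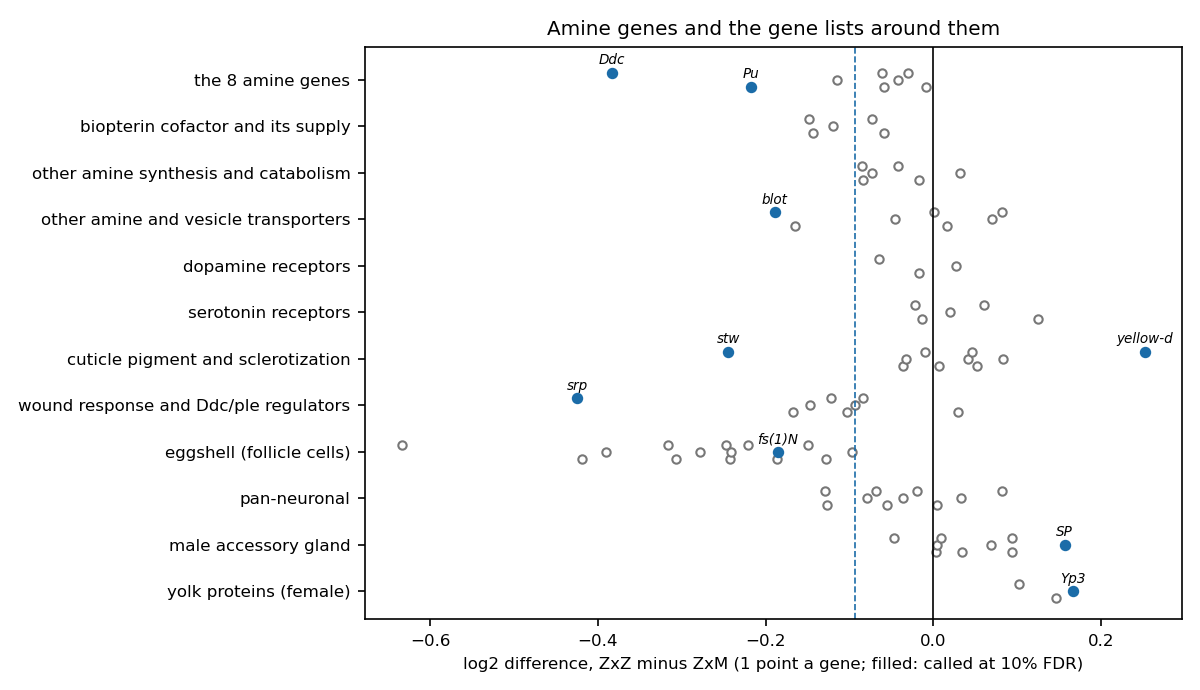
Log2 difference (ZxZ minus ZxM, horizontal axis) of each measured gene, 1 point a gene, for the 8 members and 11 gene lists. Filled points are called by limma at 10% FDR and named, and the dashed line is the median of the tested genes, -0.09. Called genes are Ddc, Pu, blot, stw, srp and fs(1)N on the lower side and yellow-d, SP and Yp3 on the higher side.

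Since Ddc, ple, e and t also serve cuticle and eggshell, markers of the tissues a whole female holds were read in the same fit. All 15 measured genes of the eggshell list had negative differences (median -0.21, beside -0.03 over all measured genes). Of 14 tested 1 was called, the vitelline membrane gene fs(1)N at -0.19 (SE 0.0512, adjusted p = 0.0874 from limma). After quantile normalization fs(1)N was at -0.064 and not called (adjusted p = 0.669 from limma). Cp36 at -0.24 and Femcoat at -0.63 did not pass (adjusted p = 0.109 and 0.116). Quantile normalization put Cp36 at -0.30 and Femcoat at -0.48, and neither was called (adjusted p = 0.412 and 0.596 from limma). The mean level of the list in a pool was 11.49 to 12.04 in ZxZ and 11.73 to 12.34 in ZxM, overlapping ranges, and its part in the Ddc result was not tested. None of the 5 tested pan-neuronal genes was called (ChAT at -0.13, adjusted p = 0.206, and nSyb at 0.08, adjusted p = 0.300 over all measured genes), the median of the 10 measured was -0.03, and their mean level was 7.48 to 7.59 in ZxZ and 7.45 to 7.60 in ZxM.

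The yolk protein genes, which mark female fat body and follicle cells, were near the top of the array in every pool, with a mean level of 14.57 or more. Yp3 was higher in ZxZ at 0.17 (SE 0.0580, adjusted p = 0.0963 from limma), and Yp1 at 0.15 and Yp2 at 0.10 did not pass (adjusted p = 0.136 and 0.267). Quantile normalization brought Yp3 to 0.061, Yp1 to 0.024 and Yp2 to 0.0057, none of them called, and Yp3 was at 0.10 without ZxM replicate 4 and at 0.26 without ZxM replicate 1. Of 9 male accessory gland genes 2 were tested and 1, SP, the sex peptide gene, was higher in ZxZ at 0.16 (SE 0.0460, adjusted p = 0.0874 from limma), at log2 levels of 6.68 to 6.79 in ZxZ and 6.56 to 6.64 in ZxM that lie close to the lowest of the array. Acp76A at 0.09 and Acp95EF at 0.07 did not pass (adjusted p = 0.239 and 0.281 over all measured genes), and the part of either list in the amine results was not tested.

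The genes whose levels ran most like Ddc over the 8 pools were sought among the tested genes by Pearson's r, which here includes the difference between the groups and which all genes of an array share in part through its scaling. They were CG14641 (r = 0.983), mael (r = 0.976), CG12112 (r = 0.975), tapas (r = 0.975) and CG10927 (r = 0.975). The first 4 were called lower in ZxZ by limma, at -0.13, -0.15, -0.31 and -0.24, and CG10927 was at -0.10 (adjusted p = 0.139). After quantile normalization, where Ddc was at -0.34, these 5 genes were at -0.013, -0.035, -0.23, -0.14 and -0.032 in the same order, and none was called. For Pu they were Rab3 (r = 0.986), Picot (r = 0.984), wdp (r = 0.975), CG42784 (r = 0.975) and Trl (r = 0.972), of which wdp at -0.25 was called (adjusted p = 0.0906 from limma) and the other 4, at -0.16, -0.20, -0.13 and -0.13, were not. After quantile normalization Rab3 was at -0.18, Picot at -0.087, wdp at -0.16, CG42784 at -0.14 and Trl at -0.035, again with no call. The lists for Ddc and Pu share no gene.

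**Figure D5:**
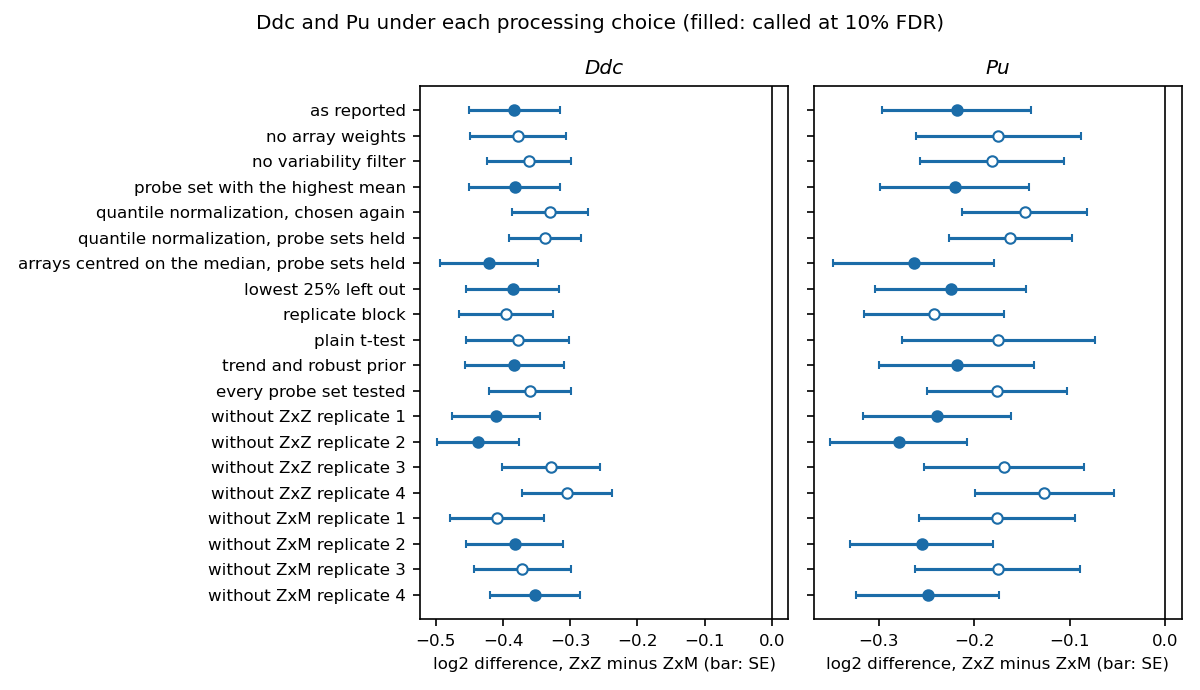
Log2 difference (ZxZ minus ZxM, horizontal axis, bars are SE) of Ddc and Pu as reported and under each other processing choice, 1 row a choice, filled where called at 10% FDR. Ddc stays between -0.44 and -0.30 and Pu between -0.28 and -0.13, and each was called under 8 of the 19 alternatives shown.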

How the data were processed

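Gene expression was measured in 8 pools on 8 arrays. The deposited values are log2 expression levels: the authors corrected background, calibrated between arrays and transformed with VSN, then summarised probe sets with RMA (affy, R 2.8.1 in the submitters' processing notes). No genome build is given in the submitters' sources. Symbols were updated by Entrez number to RefSeq (Release 6 plus ISO1 MT), whose coordinates gave arm and gene order and had no other use. Signal over background is unknown, and the number of arrays limits precision.

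Following the methods, each gene was represented by its most variable probe set. Their filter, which removed probe sets with an interquartile range under 0.5, was read as a quantile, so genes in the upper 50% were tested. Read as log2 units it left 51 genes here, fewer than the paper reports as differentially expressed. That reading was run as an alternative only. As in the methods, ZxZ minus ZxM was fitted in R 4.3.3 with limma 3.58.1 (eBayes, arrayWeights fitted by REML, two-sided p adjusted by Benjamini-Hochberg over all tested genes, 10% FDR). The fit was run on simulated arrays with independent noise of equal spread on every array. Such arrays cannot show how it handles unequal arrays or shifts that many genes share. The labels name the replicates biological. Members and lists were chosen with earlier results of these data known. Named genes are the members, called genes of the 11 lists with up to 2 more of smallest p each, tested genes among 5 neighbours on each side of a called member, and the 5 genes most like it. Untested neighbours are summarised by range. Alternatives changed weights, filters, probe set, normalization, block, test, prior and arrays. Sequences were not used here.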

Additional observations from a re-analysis of the deposited data

Results flagged for a closer look

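The log2 level of t in ZxZ replicate 4, 8.46, lay apart from the other ZxZ pools, which were at 8.72 to 8.77, with a gap of 0.844 of the whole range of the group. It was the only outlying pool among 16 groups of 4 values (8 genes in ZxZ and in ZxM), and chance gives such a gap in about 1 in 20 groups. Without this pool the difference of t was -0.04 and did not pass the test (adjusted p = 0.723 from limma).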

How the results depend on the processing

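Ddc and Pu kept a negative difference under all 19 alternatives each, and both were called under 8: the probe set of the highest mean, arrays centred on the median, the lowest 25% of probe sets by mean level left out, a trended robust prior, and without ZxZ replicate 1, ZxZ replicate 2, ZxM replicate 2 or ZxM replicate 4. Members called fell from 2 to 0 under 7 others, for which the differences of Ddc and Pu follow (adjusted p from limma in brackets): no array weights -0.38 (0.199) and -0.17 (0.243), no variability filter -0.36 (0.121) and -0.18 (0.207), quantile normalization with probe sets chosen again -0.33 (0.20) and -0.15 (0.524) or held -0.34 (0.337) and -0.16 (0.487), the replicate number as a block -0.40 (0.132) and -0.24 (0.135), and every probe set tested -0.36 (0.129) and -0.18 (0.249). A t-test with neither weights nor moderated errors, on the unweighted differences of -0.38 and -0.17, gave adjusted p of 0.107 and 0.352. An interquartile range of at least 0.5 log2 units, the other reading of the filter in the methods, left 51 genes and no member.

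Genes called, 1123 as reported, were 0 with equal weights (1365 had an unadjusted p under 0.05), with all genes kept (2529), with the range of at least 0.5 (5), under quantile normalization chosen again (569) or held (584) and over every probe set (3288), 1 with the block (1606), 10 by the unmoderated t-test (1384) and 2503 after centring, 2461 of them lower against 1057 of 1123 as reported. Leaving out 1 pool gave 0 to 2844 genes and 0 to 2 members, with Ddc at -0.44 to -0.30 and Pu at -0.28 to -0.13; both counts were 0 without ZxZ replicate 3, ZxZ replicate 4, ZxM replicate 1 or ZxM replicate 3. Signs turned in such fits for ple (-0.076 to 0.012), DAT (-0.056 to 0.027), SerT (-0.098 to 0.086), DopEcR (-0.017 to 0.068), amd (-0.16 to 0.0083), AsnRS (-0.084 to 0.0035) and Ugt49B1 (-0.032 to 0.17). Quantile normalization, chosen again and held, turned Dhpr (0.0054 and 0.0018), DopEcR (-0.0035 and -0.0034) and AsnRS (0.078 and 0.076), centring turned DopEcR (-0.010), and the highest mean turned Gyg (0.082). Both crosses were made within each of 4 replicates, but the sources do not say what a replicate shared (a day, a batch), and deviations of same-numbered pools correlated at -0.23 to 0.16, with 2 of 4 ZxZ pools closest to their own number. The cause of these changes was not tested.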
